A study of Rattus norvegicus with 10 samples.

Results

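The genes described here are 10 components of the chondroitin sulfate proteoglycan matrix of the brain: Cspg4, Cspg5, Ptprz1, Bcan, Ncan, Vcan, Tnc, Tnr, Hapln1 and Hapln2. They were chosen by symbol, and all 10 were found, each under 1 gene ID, among the 23487 genes of the table. Their RNA was measured by bulk RNA-seq in primary Sprague-Dawley rat cells taken by shaking from mixed glial cultures of neonatal cortex (P1 to P3), in 10 libraries and 5 groups of 2. The study describes each N as a biological replicate, and for primary culture as an enriched culture from a single mouse. It gives the RNA-seq as N = 2 per condition. The labels of these rat libraries do not themselves say that the 2 libraries of a group came from separate cultures. The p-values measure the spread between these libraries.

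Oligodendrocytes (OLs) had been transfected with 30 nM of a mimic, a synthetic duplex that supplies a mature microRNA, and were assayed on day 5 of differentiation. They carried a non-targeting mimic (OL miR-ctl), the miR-145-5p mimic (OL miR-145), or the miR-145 and miR-219 mimics together (OL miR-145+miR-219). Oligodendrocyte progenitor cells (OPCs) had received 30 nM of an inhibitor of miR-145 (OPC anti-miR-145) or a non-targeting inhibitor (OPC anti-miR-ctl) and were assayed 24 hours later. One tag of the OL miR-145 libraries names miR-219 as well, whereas their titles name miR-145 alone, and the groups follow the titles. Gene counts do not measure mature miR-145, so the supply or block of the microRNA itself was not checked here.

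Chondroitin sulfate proteoglycans are core proteins that carry long sulfated sugar chains. The lecticans (Bcan, Ncan, Vcan and aggrecan) bind hyaluronan at one end and tenascin-R at the other, and the link proteins of the Hapln family hold the hyaluronan bond together. The matrix they form is laid down by glia and neurons, gathers around nodes of Ranvier and perineuronal nets, and builds up in demyelinated lesions, where it slows the outgrowth of progenitor processes. Ptprz1, a receptor phosphatase, and Cspg4, also called NG2, carry such chains on the surface of progenitors.

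The agent shared by both OL mimic groups and targeted by the OPC inhibitor is given first, because 3 of the 5 comparisons turn on it. The mature rno-miR-145-5p of RefSeq (GRCr8 chr18:57370033-57370055, minus strand) is shown 5′ to 3′ with its seed, bases 2 to 8, in capitals. The arm of miR-219 is not named in the labels, so no sequence is given for it.
rno-miR-145-5p: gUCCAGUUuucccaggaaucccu

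Library totals lay between 33505668 and 42684176 estimated counts. Levels are CPM, counts scaled to a common library size after TMM normalization over all 10 libraries. They can be compared for 1 gene between libraries but not between genes, since they are not divided by length. The labelled stages differed in their summed markers. The oligodendrocyte markers summed to 12930 to 29940 CPM in the OL libraries against 469.9 to 594.5 in the OPC libraries. The progenitor markers summed to 363.7 to 651.4 CPM in OLs against 985.3 to 1608 in OPCs. Single markers did not all follow the sums. Gpr17, of the progenitor list, was at 183.3 to 375.1 CPM in OLs and 21.4 to 33.1 in OPCs. Between the controls, 1 of 3 progenitor markers was called higher in OL miR-ctl and 2 lower. Of 6 oligodendrocyte markers 5 were called higher, and Mog overlapped, at 9.19 and 23.2 CPM in OL miR-ctl against 11.5 and 11.9 in OPC anti-miR-ctl. The summed astrocyte markers also stood higher in OLs, at 5345 to 13010 CPM against 403.7 to 655 in OPCs, with Gfap the largest part in OLs. Between the controls 6 of 7 were called higher and 0 lower. Slc1a3 overlapped, at 490 and 305 CPM in OL miR-ctl against 398 and 376 in OPC anti-miR-ctl. Microglial markers were at 309.4 to 876.3 CPM in OLs and 814.2 to 1003 in OPCs, and fibroblast or mural markers at 3.59 to 24.3 CPM in OLs and 1.13 to 2.19 in OPCs. Within the OL groups, 6 of the 10 members read higher in replicate 1 than in replicate 2 in every group, and Hapln2 read lower.

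**Figure D1:**
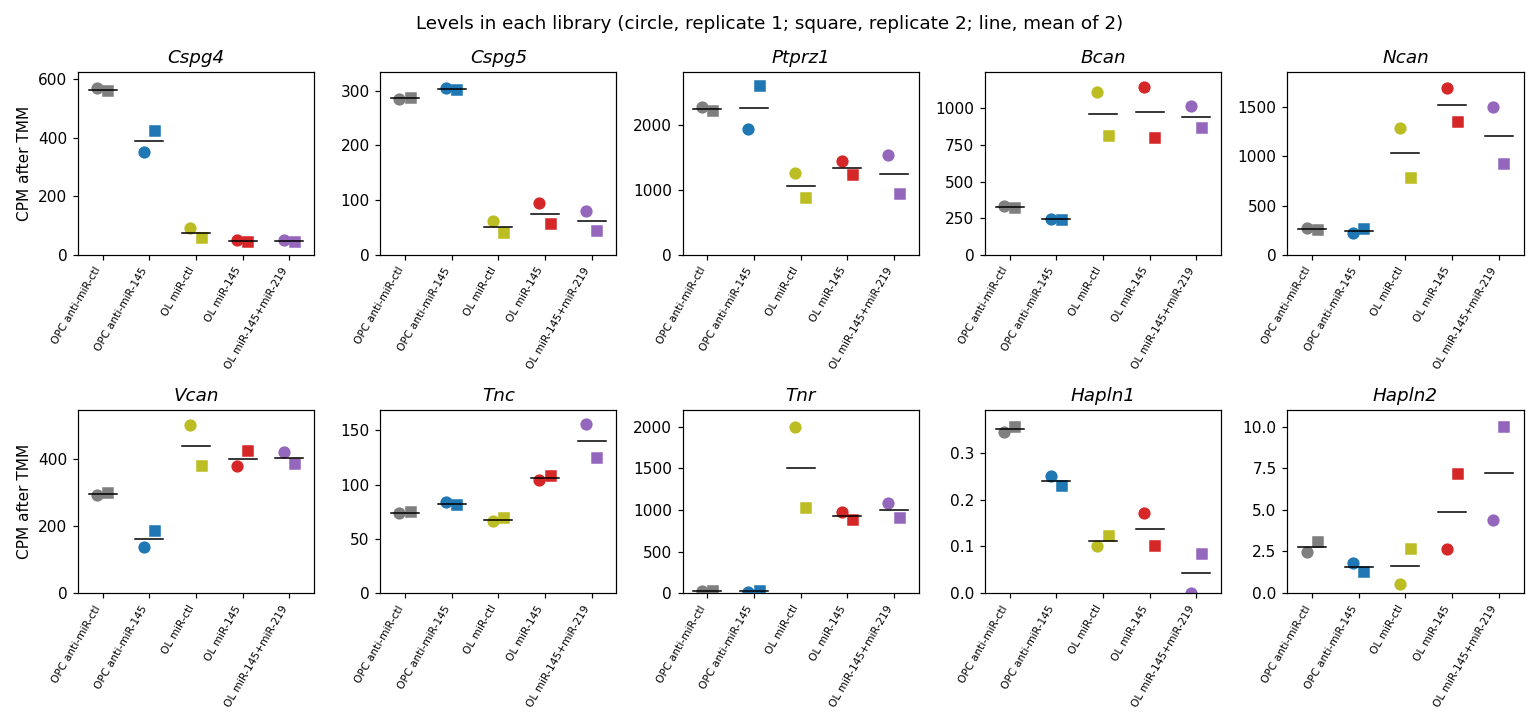
Level of each of the 10 genes in each of the 10 libraries, in CPM after TMM scaling on linear axes that start at 0 and differ between panels. Circles are replicate 1, squares replicate 2 and lines the mean of the 2 libraries of a group. Tnr, Ncan and Bcan sit high in all 6 OL libraries, Cspg4, Cspg5 and Ptprz1 in all 4 OPC libraries.

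The comparison of OL miR-ctl with OPC anti-miR-ctl describes the control cells at the 2 stages. The matrix genes did not move as a block: the lecticans Ncan, Bcan and Vcan and the tenascin Tnr rose in OLs, by 1.47-fold to 59.1-fold, whereas the surface proteoglycans Cspg4, Cspg5 and Ptprz1 fell by 2.13-fold to 7.64-fold, and the scarce link protein gene Hapln1 fell as well. In this comparison 8 of the 10 members passed the edgeR test at adjusted p under 0.05, 4 in each direction, beside 57.5% of all genes tested (28.8% higher and 28.7% lower), and 9 of the 10 did not overlap between the groups beside 81.8% of all genes. The median log2 fold change of the members was -0.48, and that of all genes 0.01. DESeq2 called 7 of the members and 53.4% of all genes. Differentiation, the medium, the kind of control oligonucleotide and the time after transfection changed together and cannot be told apart here, and in bulk RNA fewer cells of a type and less RNA per cell cannot be told apart either.

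Inhibition of miR-145 in OPCs was followed by lower Vcan, Cspg4 and Bcan RNA, by 1.85-fold, 1.47-fold and 1.36-fold. No member rose by the test. The 3 members called, all lower, stood beside 28.1% of all genes called in either direction and 16% called lower. Their share was near that of all genes called in either direction and above that of all genes called lower, on only 3 genes. A further pair, Hapln2 and Hapln1, lay lower in both anti-miR-145 libraries without passing, and Cspg5 and Tnc slightly higher, so that 7 of the 10 members did not overlap beside 68.5% of all genes. The median log2 fold change of the members was -0.44, against 0.00 for all genes. DESeq2 also called 3 members, beside 26.4% of all genes. When all 5 groups shared a single edgeR fit, which called 15.6% of all genes, Vcan alone was called and Cspg4 (adjusted p = 0.122) and Bcan (adjusted p = 0.176) were not. Without OPC anti-miR-145 replicate 2, 7 members were called, with Ncan, Tnr and Ptprz1 lower and Tnc higher besides the 3, beside 7133 of 15281 genes. Markers of several cell types differed here too: the 3 oligodendrocyte lineage markers were all called higher (median log2 0.55, summed level 3952 to 3977 CPM against 2576 to 2677), and of 9 microglial markers 5 were called higher and 3 lower (summed level 814.2 to 1003 CPM against 827 to 872.1). Of 3 progenitor markers 1 was called higher and 1 lower. Their part in the members' levels was not tested.

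In OLs, the miR-145 mimic gave no called gene, member or other, when edgeR was fitted on the 4 libraries of the comparison: 0 of 15461 genes, 0% of those tested, passed the adjusted threshold, 13.4% had an unadjusted p under 0.05 and DESeq2 called 4.2%. The members' levels nonetheless parted between the groups for 5 of the 9 that were tested, beside 47.3% of all genes: every miR-145 library exceeded every control library for Tnc, Ncan and, by less than rounding, Hapln2, and fell short of every control library for Cspg4 and Tnr. Tnc had the smallest unadjusted p of the members. DESeq2 called Tnc alone of the members. The median of the 9 members was 0.34 and that of all genes -0.01.

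With miR-145 and miR-219 together, set against the same OL miR-ctl libraries, 0 of 15436 genes (0%) passed in edgeR without the block. There 6.19% had an unadjusted p under 0.05, and DESeq2 called 0.687%. Tnc and Hapln2 were higher and Cspg4 lower in both libraries than in both controls, 3 of the 9 members tested beside 36.8% of all genes, and DESeq2 again called Tnc alone of the members. Set against OL miR-145, the combined mimics gave 0 called of 15501 genes (0%), with 1.47% at an unadjusted p under 0.05 and 0.0581% by DESeq2. Here Tnc alone of the 9 members did not overlap, beside 24.8% of all genes, and it was higher with both mimics. DESeq2 called none of the members in that comparison, and Tnc alone had an unadjusted p under 0.05 in edgeR.

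**Figure D2:**
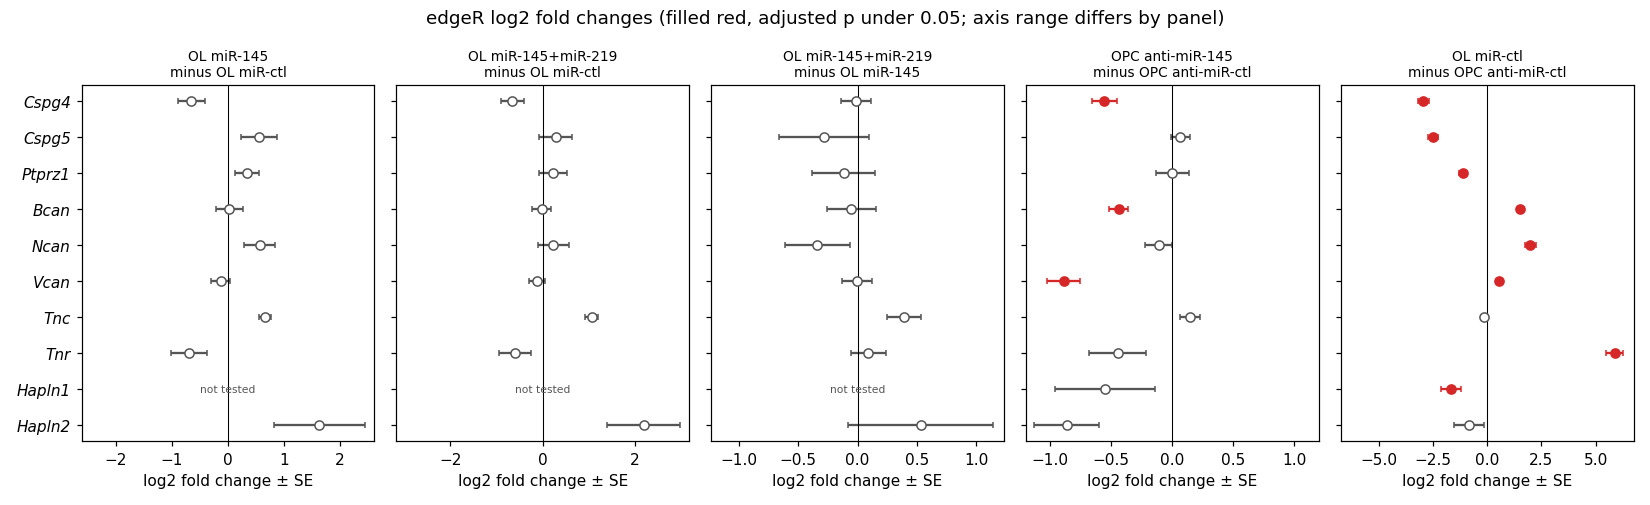
edgeR log2 fold change of each gene (points) with its standard error (bars) in the 5 comparisons, first group minus second group, from fits without a replicate block. Filled red points passed an adjusted p of 0.05 and axis ranges differ between panels. The called genes are 3 in the OPC inhibitor comparison, all lower, and 8 in the OL against OPC comparison, 4 on each side, and none in the 3 mimic comparisons, in which Hapln1 was not tested.

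Among the lecticans, Ncan (neurocan), a secreted proteoglycan of the brain matrix, differed most between the stages of the 3 members of that family. Its level was 268 and 248 CPM in OPC anti-miR-ctl and 216 and 266 in OPC anti-miR-145, and it was 1290 and 776 CPM in OL miR-ctl, 1696 and 1350 in OL miR-145 and 1496 and 922 in OL miR-145+miR-219. All 6 OL libraries lay above all 4 OPC libraries, while the 2 OPC groups overlapped. Ncan rose 3.97-fold in OL miR-ctl over OPC anti-miR-ctl (log2 1.99, SE 0.25, edgeR adjusted p = 0.00195). The miR-145 mimic gave a log2 difference of 0.57 (SE 0.27, edgeR adjusted p = 0.433) with both libraries above both controls, which ran from 0.24 without OL miR-ctl replicate 2 to 0.98 without replicate 1, and the combined mimics 0.23 (SE 0.34, adjusted p = 0.943) with overlap. The combined mimics against miR-145 alone gave -0.34 (SE 0.27), and the inhibitor in OPCs -0.11 (SE 0.11, adjusted p = 0.487).

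Bcan (brevican), the lectican made by progenitors and astrocytes and found at perinodal matrix, had the higher OL level too. It stood at 333 and 322 CPM in OPC anti-miR-ctl, 246 and 241 in OPC anti-miR-145, 1110 and 812 in OL miR-ctl, 1145 and 801 in OL miR-145 and 1020 and 867 in OL miR-145+miR-219. The 3 OL groups overlapped one another, and the 2 OPC groups were apart. Bcan rose 2.91-fold in OL miR-ctl over OPC anti-miR-ctl (log2 1.54, SE 0.16, edgeR adjusted p = 0.00109) and fell 1.36-fold with the inhibitor (log2 -0.44, SE 0.08, edgeR adjusted p = 0.007), a call that was lost without OPC anti-miR-ctl replicate 1 (adjusted p = 0.0731). The mimics gave log2 differences of 0.02 (SE 0.24) for miR-145 and -0.02 (SE 0.20) for both, each over OL miR-ctl.

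Vcan (versican), the lectican with the widest tissue range, showed the largest inhibitor difference of the members called. In OPC anti-miR-ctl it was at 295 and 301 CPM and in OPC anti-miR-145 at 138 and 187, with no overlap. It fell 1.85-fold (log2 -0.89, SE 0.13, edgeR adjusted p = 0.00335), and the log2 value ran from -1.11 to -0.70 when each library was left out. The OL groups overlapped, at 503 and 380 CPM in OL miR-ctl, 381 and 424 in OL miR-145 and 422 and 387 in OL miR-145+miR-219. Vcan rose 1.47-fold in OL miR-ctl over OPC anti-miR-ctl (log2 0.55, SE 0.15, edgeR adjusted p = 0.0234), but this call was lost without OPC anti-miR-ctl replicate 1 (adjusted p = 0.148) or replicate 2 (adjusted p = 0.137). Over OL miR-ctl the log2 difference was -0.13 (SE 0.17) with miR-145 and -0.12 (SE 0.17) with both mimics.

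Of the surface proteoglycans, Cspg4, the NG2 antigen by which progenitors are recognised, had the steepest drop. It was at 568 and 559 CPM in OPC anti-miR-ctl and 352 and 423 in OPC anti-miR-145. In OLs it was at 92.7 and 56.1 CPM in OL miR-ctl, 50.0 and 44.3 in OL miR-145 and 50.5 and 43.7 in OL miR-145+miR-219. The 2 mimic groups overlapped each other and lay below both control libraries. Cspg4 fell 7.64-fold in OL miR-ctl against OPC anti-miR-ctl (log2 -2.93, SE 0.25, edgeR adjusted p = 0.00053) and 1.47-fold with the inhibitor in OPCs (log2 -0.56, SE 0.10, edgeR adjusted p = 0.00723). The log2 difference from OL miR-ctl was -0.65 (SE 0.25, edgeR adjusted p = 0.354) with miR-145 and -0.66 (SE 0.26, adjusted p = 0.801) with both mimics, and without OL miR-ctl replicate 1, the higher control, it was -0.24 in each.

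Cspg5, a membrane proteoglycan with an EGF-like domain, stood high in OPCs and low in OLs, whether or not miR-145 was inhibited. It was at 285 and 287 CPM in OPC anti-miR-ctl and 305 and 300 in OPC anti-miR-145, and fell to 62.6 and 39.9 in OL miR-ctl. The difference with the inhibitor was 0.07 on the log2 scale (SE 0.08, edgeR adjusted p = 0.559), and the drop in OL miR-ctl was 5.63-fold (log2 -2.49, SE 0.22, edgeR adjusted p = 0.000611). Levels were 94.7 and 55.8 CPM in OL miR-145 and 80.1 and 44.0 in OL miR-145+miR-219, and the 3 OL groups overlapped.

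Ptprz1, whose secreted form is phosphacan, was expressed at both stages. It was at 2276 and 2209 CPM in OPC anti-miR-ctl, 1940 and 2598 in OPC anti-miR-145, 1253 and 871 in OL miR-ctl, 1441 and 1237 in OL miR-145 and 1543 and 940 in OL miR-145+miR-219. It fell 2.13-fold in OL miR-ctl against OPC anti-miR-ctl (log2 -1.09, SE 0.18, edgeR adjusted p = 0.00517). The inhibitor gave 0.00 on the log2 scale (SE 0.13), with one treated library above and the other below both controls, and the 3 OL groups overlapped.

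The 2 tenascins behaved unlike each other. Tnr (tenascin-R), an oligodendrocyte product that crosslinks lecticans, was low in OPCs and high in OLs. It was at 27.2 and 23.3 CPM in OPC anti-miR-ctl and 13.6 and 23.9 in OPC anti-miR-145, and at 1998 and 1018 CPM in OL miR-ctl, a mean of 1508 ± 693 (SD, n = 2). Tnr rose 59.1-fold between the controls (log2 5.89, SE 0.39, edgeR adjusted p = 0.000239). In OL miR-145 it was at 977 and 878 CPM, below both controls, and in OL miR-145+miR-219 at 1081 and 907, which overlapped the controls. The log2 differences were -0.69 (SE 0.32, edgeR adjusted p = 0.42) and -0.60 (SE 0.34, adjusted p = 0.822), and without OL miR-ctl replicate 1 they were -0.13 and -0.02, so their size rested on that library. The inhibitor gave -0.45 (SE 0.23, edgeR adjusted p = 0.195) in OPCs, and the gene was called lower without OPC anti-miR-145 replicate 2 (log2 -0.89, adjusted p = 0.000137).

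Tnc (tenascin-C), a matrix protein of immature and reactive glia, was the one member whose 3 OL groups were all apart from each other. It was at 66.2 and 69.2 CPM in OL miR-ctl, 104.5 and 108.1 in OL miR-145 and 156 and 124 in OL miR-145+miR-219, lowest in the control and highest with both mimics. The log2 difference was 0.66 for miR-145 (1.58-fold, SE 0.10, edgeR unadjusted p = 0.00107, adjusted p = 0.158, DESeq2 adjusted p = 0.000475) and 1.06 for both mimics (2.08-fold, SE 0.14, edgeR unadjusted p = 0.000694, adjusted p = 0.777, DESeq2 adjusted p = 2.55e-05). The 2 comparisons share their controls. Over OL miR-145 the combined mimics gave 0.39 (SE 0.14, edgeR unadjusted p = 0.043, adjusted p = 1). In OPCs the levels were 73.4 and 74.6 CPM in anti-miR-ctl and 84.2 and 80.9 in anti-miR-145, a log2 difference of 0.14 (SE 0.08, edgeR adjusted p = 0.23). Between the controls Tnc gave -0.14 (SE 0.07, edgeR adjusted p = 0.159).

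Markers of the lineage and of other cell types also differed in level between the mimic groups and their control. The progenitor markers summed to 458.7 to 651.4 CPM in OL miR-ctl, 363.7 to 387.8 in OL miR-145 and 387.3 to 419.8 with both mimics. In both comparisons with OL miR-ctl 0 of 3 lay above 0 (median log2 -0.394 and -0.435). Of 6 oligodendrocyte markers 1 lay above 0 for miR-145 (median -0.236) and 4 for both mimics (median 0.184). None of these lineage markers was called. For astrocytes the summed level was 5345 to 6345 CPM in OL miR-ctl, 8858 to 13010 in OL miR-145 and 6377 to 10750 in OL miR-145+miR-219, and all 7 markers had log2 differences above 0 in both comparisons with OL miR-ctl, with medians of 0.88 and 0.56, none of them called. All 7 lay below 0 in the combined mimics against miR-145, with a median of -0.31. The 9 microglial markers all lay above 0 for miR-145 over OL miR-ctl, with a median of 0.61, 5 of 9 for both mimics over OL miR-ctl (median 0.31) and 0 of 9 for both mimics over miR-145 (median -0.48), and none was called. Their summed level was 352.3 to 530.8 CPM in OL miR-ctl, 331.2 to 876.3 in OL miR-145 and 309.4 to 575.2 with both mimics. Fibroblast or mural markers summed to 3.59 to 3.64 CPM in OL miR-ctl, 7.48 to 24.3 in OL miR-145 and 6.97 to 7.28 with both mimics, and Col1a1, which encodes a collagen, was at 16.4 CPM in OL miR-145 replicate 2 and at most 2.78 in the other OL libraries. Gfap itself ranged from 4173 to 9675 CPM in OLs and from 7.8 to 51.8 in OPCs, and Aldh1l1 from 1.32 to 2.25 in OLs, the lowest of the 7 there. No marker of the list was at 0 in any library. In OPCs with the inhibitor the median of the 7 markers was 0.27, with 1 called higher and 3 called lower. The part of these cells in the members' levels was not tested.

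**Figure D3:**
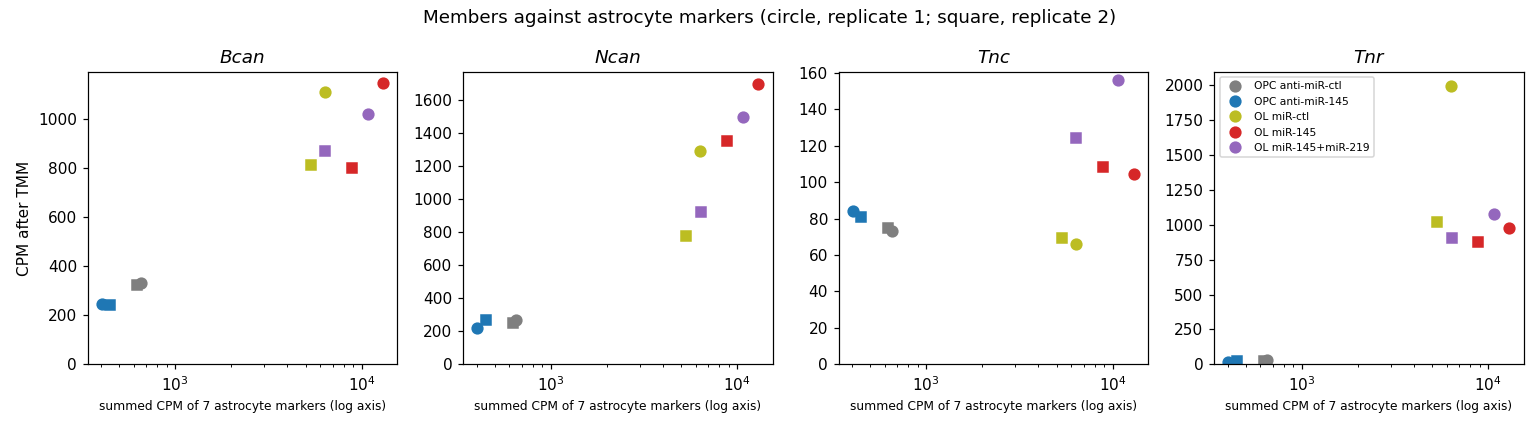
Level of Bcan, Ncan, Tnc and Tnr (vertical axis, CPM after TMM scaling, from 0) against the summed CPM of 7 astrocyte markers (horizontal log axis) in each of the 10 libraries, coloured by group, circles for replicate 1 and squares for replicate 2. The 4 OPC libraries lie at 403.7 to 655 and the 6 OL libraries at 5345 to 13010 on the horizontal axis. Tnc in OL miR-ctl is at 66.2 and 69.2 CPM and in OL miR-145+miR-219 at 156 and 124.

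The link proteins were the scarcest members. Hapln1, which joins aggrecan and versican to hyaluronan, had 15 and 13 counts in OPC anti-miR-ctl, 10 and 10 in OPC anti-miR-145, 4 and 4 in OL miR-ctl, 6 and 4 in OL miR-145 and 0 and 3 in OL miR-145+miR-219. It fell 3.13-fold in OL miR-ctl against OPC anti-miR-ctl (log2 -1.65, SE 0.47, edgeR adjusted p = 0.0302), a call that DESeq2 did not make (adjusted p = 0.211). That call was also lost without a filter on low counts (adjusted p = 0.0658) and without OL miR-ctl replicate 1 (adjusted p = 0.0849). At such counts a change by the mimics was not detectable, and the gene failed the count filter in the 3 mimic comparisons.

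Hapln2, a link protein of the nodes of Ranvier, was higher in the mimic groups by its values. It had 22 and 87 counts (0.552 and 2.67 CPM) in OL miR-ctl, 93 and 282 (2.67 and 7.13 CPM) in OL miR-145 and 179 and 356 (4.40 and 10.0 CPM) in OL miR-145+miR-219. Replicate 2 was the higher library in each OL group, and the lower OL miR-145 library met the higher control to within rounding. The log2 differences were 1.63 (SE 0.81, edgeR adjusted p = 0.445) and 2.19 (SE 0.79, adjusted p = 0.801). When each library was left out in turn they ran from 0.75, without OL miR-145 replicate 2, to 3.15 and from 1.44, without OL miR-ctl replicate 1, to 3.69, both of the highest values without OL miR-ctl replicate 2. OPC anti-miR-ctl had 2.49 and 3.06 CPM and OPC anti-miR-145 1.83 and 1.24, a log2 difference of -0.87 (SE 0.27, edgeR adjusted p = 0.051) that just missed the threshold and passed it without OPC anti-miR-145 replicate 1 (adjusted p = 0.00797).

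In the RefSeq annotation of GRCr8, each link protein gene stands next to a lectican gene with no protein-coding gene between them: Hapln1 beside Vcan and Hapln2 beside Bcan on chromosome 2, Hapln3 beside Acan on chromosome 1 and Hapln4 beside Ncan on chromosome 16. By the sign of their log2 values the neighbours did not share a direction between the stages, though not every difference was called. The lecticans Vcan, Bcan, Acan and Ncan were each called higher in OL miR-ctl than in OPC anti-miR-ctl. Hapln1, Hapln3 (log2 -2.72, SE 0.40, edgeR adjusted p = 0.0035) and Hapln4 (log2 -1.04, SE 0.16, edgeR adjusted p = 0.00365) were called lower. The Hapln1 call was not made by DESeq2, and the Vcan call was lost without either OPC anti-miR-ctl library. Hapln2 was not called, at -0.82 (SE 0.68), and its libraries overlapped. With each library left out its log2 value ran from -2.33, without OL miR-ctl replicate 2, to -0.05. Acan, aggrecan, rose from 4.66 and 5.25 CPM to 48.3 and 22.2 (log2 2.82, SE 0.40, edgeR adjusted p = 0.00291). Hapln4, a link protein that binds brevican, was called higher with the inhibitor in OPCs, at 16.1 and 16.2 CPM against 10.4 and 12.1 (log2 0.51, SE 0.12, edgeR adjusted p = 0.0171). Its neighbour Ncan gave -0.11 there and was not called. In the pairs of members the signs matched with the inhibitor. Vcan gave -0.89 and Hapln1 -0.55, and Bcan gave -0.44 and Hapln2 -0.87, with the link proteins not called.

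Enzymes and partners of the matrix were followed in 6 lists. The counts with the inhibitor in OPCs stand beside 28.1% of all genes called, 12.1% higher and 16% lower. There 5 of 12 genes of chondroitin sulfate chain synthesis were called, among them Csgalnact1 (log2 0.64) and B4galt7 (0.38) higher and Chsy3 (-1.61) and Csgalnact2 (-0.65) lower. Of 11 genes of sulfation and epimerization, Chst11, a chondroitin 4-O-sulfotransferase, was higher (0.42), and 3 were lower, with the epimerase Dse (3.99-fold lower) and the 6-O-sulfotransferase Chst3 (log2 -0.67) at the smallest p. Among 13 receptors and ligands, 4 were higher, Ptprs, a receptor for the sugar chains, by 0.53 and Itga8, an integrin subunit that binds tenascins, by 0.50, and the hyaluronan receptor Cd44 was lower (-0.26).

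The proteases that cut lecticans, and their inhibitors, held the largest single change named for these lists with the anti-miR, that of Mmp9. Of 12 genes, 5 were called higher and 3 lower, beside the same 28.1% of all genes. Adamts9 and Timp1 were each higher by 2.23 on the log2 scale (SE 0.10 and 0.12), and Adamts20 was lower by a log2 value of -1.18 (SE 0.12). Mmp9, a gelatinase, had 665 and 537 counts in OPC anti-miR-ctl and 23 and 26 in OPC anti-miR-145 (log2 -4.68, SE 0.16, edgeR adjusted p = 1.63e-05). The hyaluronan synthases Has2 (-3.90, SE 0.38) and Has1 (-1.73, SE 0.44) were called lower, and Cemip, which degrades hyaluronan, and Hapln4 higher (1.22 and 0.51), 3 higher and 2 lower of 10 tested. Among heparan sulfate proteoglycans, which carry a different chain, 3 of 10 were higher, with Sdc3 (0.81) and Gpc2 (0.80) first, and Sdc4 (-1.02) and Agrn (-0.45) lower.

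Between OL miR-ctl and OPC anti-miR-ctl the same lists gave calls in both directions, beside 57.5% of all genes called, 28.8% higher and 28.7% lower. In chain synthesis 1 of 12 was higher, B3gat3 (log2 0.92), and 3 were lower, with Fam20b (-0.65) and Xylt1 (-1.92) at the smallest p. In sulfation 4 of 11 were higher, with Papss1 (0.47) and Dsel (1.00) first, and 3 lower, with Chst7 (-3.84) and Dse (-2.08) first. Among receptors and ligands 7 of 13 were higher and 5 lower. Nfasc, the nodal adhesion molecule, rose by 4.67 and Cd44 by 1.21, whereas the tenascin-R receptor Cntn1 (-1.89) and Itga8 (-3.27) fell. Of the proteases and inhibitors 6 of 12 were higher, Timp3 (2.50) and Timp1 (1.64) first, and 3 lower, Adamts20 (-2.70) and Mmp2 (-3.90) first. Of 11 hyaluronan matrix genes 3 were higher, Hyal1 (1.68) and Acan first, and 4 lower, Cemip2 (-1.05) and Hyal2 (-0.62) first. Of 10 heparan sulfate proteoglycans 4 were higher, Sdc4 (3.97) and Sdc2 (1.33) first, and 5 lower, Gpc6 (-2.18) and Gpc3 (-3.56) first.

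**Figure D4:**
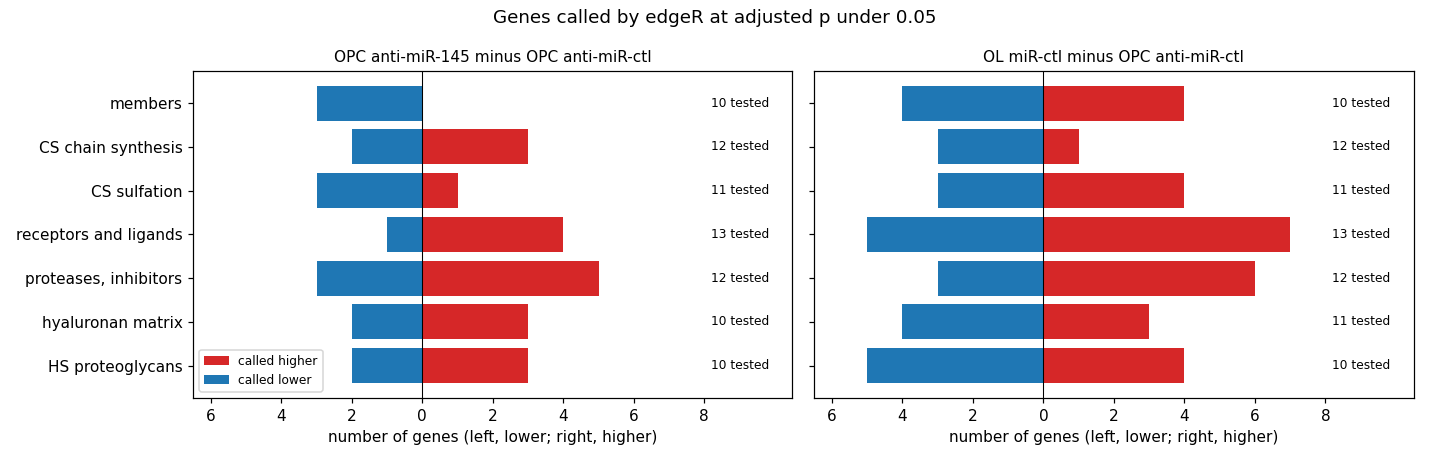
Number of genes called higher (right, red) and lower (left, blue) by edgeR at adjusted p under 0.05, by list, with the number tested, in OPC anti-miR-145 against OPC anti-miR-ctl and in OL miR-ctl against OPC anti-miR-ctl. The 10 members have 3 lower and 0 higher in the first and 4 of each in the second, and the receptor list has 7 higher and 5 lower of 13 in the second.

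No gene of these lists was called with the mimics when edgeR was fitted on the 4 libraries of each comparison without a replicate block. For miR-145 against OL miR-ctl the smallest p in each list belonged to Csgalnact1 (log2 0.78, SE 0.18), Chst3 (-0.51, SE 0.11), Rtn4rl1 (1.21, SE 0.23), Mmp9 (-4.67, SE 0.77), Has2 (-1.91, SE 0.39) and Sdc4 (1.02, SE 0.16), none called, with adjusted p from 0.158 to 0.191. For both mimics against OL miR-ctl it belonged to Chpf (0.31), Chst3 (-0.31), Mdk (0.97), Mmp9, Has2 (-1.79) and Gpc4 (1.33), none called. Mmp9 had 62 and 22 counts in OL miR-ctl, 2 and 1 in OL miR-145 and 0 and 0 with both mimics. Against a floor of 3 counts per library (0.079 CPM), its level with both mimics was at least 14.1-fold below the OL miR-ctl mean of 1.115 CPM. The control libraries differed, at 62 and 22 counts, so this bound holds for their mean and not for each of them. For both mimics against miR-145 it belonged to Xylt2 (-0.23), Chst3 (0.19), Ptprf (-0.29), Timp1 (-0.41), Cemip (-0.92) and Gpc3 (-2.14), none called, each with an adjusted p of 1.

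The genes whose pattern over the 10 libraries was most like that of a member, by Pearson's r of log2(CPM + 1), are given as a description, since the libraries fall into OL and OPC clusters and every gene that follows the stage will score high. For Tnr it was Sema5a (r = 0.999), for Cspg4 Ror2 (0.998), for Ncan Glb1l (0.996), for Cspg5 Etv5 (0.996), for Bcan Cdh20 (0.994) and for Ptprz1 Map2 (0.992). For Hapln2 it was Ermn (0.965), which encodes an oligodendrocyte cytoskeletal protein. The nearest gene to Tnc, Ston1, reached 0.921, the lowest of the nearest values given here, and the nearest to Hapln1, a gene of few counts, was MGC116197 (0.965).

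Promoters are shown for Tnr and Cspg4, the members with the largest rise and fall between the stages, and for Tnc, the member that stood apart in all mimic comparisons. RefSeq's promoter table (GRCr8) held 8 of the 10 members. The 250 bases before each start are printed 5′ to 3′ on the gene's strand. Capitals mark matches, on either strand, to 4 short motifs: TATAAA of the TATA box, GGGCGG of the GC box, CAGCTG of one kind of E-box and ACAAT of Sox sites. Of 33469 promoters of that length, 12.9% held the TATA motif, 30.5% the GC box, 12% the E-box and 30% the Sox motif.
Tnr (chr13:74624776-74625025, plus strand): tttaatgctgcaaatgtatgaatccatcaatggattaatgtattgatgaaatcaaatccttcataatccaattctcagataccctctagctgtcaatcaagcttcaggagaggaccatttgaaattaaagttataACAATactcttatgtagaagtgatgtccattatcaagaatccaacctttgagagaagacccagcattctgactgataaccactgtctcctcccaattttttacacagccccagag
Cspg4 (chr8:66160692-66160941, plus strand): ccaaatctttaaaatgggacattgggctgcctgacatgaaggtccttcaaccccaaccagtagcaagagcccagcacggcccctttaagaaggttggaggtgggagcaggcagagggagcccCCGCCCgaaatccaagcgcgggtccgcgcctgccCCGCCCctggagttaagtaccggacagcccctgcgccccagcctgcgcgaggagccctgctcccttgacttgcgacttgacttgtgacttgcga
Tnc (chr5:82476132-82476381, minus strand): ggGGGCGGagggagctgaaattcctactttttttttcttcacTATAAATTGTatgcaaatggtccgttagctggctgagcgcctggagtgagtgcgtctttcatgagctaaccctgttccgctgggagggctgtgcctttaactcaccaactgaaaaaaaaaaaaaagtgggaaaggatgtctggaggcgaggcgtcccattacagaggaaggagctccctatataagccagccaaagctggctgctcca

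The Tnr window was poor in G and C, at 36.8% (percentile 8.03 of those promoters) against a median of 51.2%, and held 1 Sox motif 115 bases before the start. The Cspg4 window had 62% G and C and 2 GC boxes, 128 and 94 bases before the start, both on the other strand. The Tnc window had 49.6% G and C, with a GC box 248 bases, a TATA motif 208 bases and a Sox motif on the other strand 203 bases before the start, the last of which shares a base with the TATA motif. It also held tatataag nearer the start, a near match that the exact search for TATAAA left unmarked. Hapln2 had 3 Sox motifs and 1 E-box in its window, and Bcan and both Vcan starts had 1 GC box each. A match of a few letters is a description of the window and not a binding site.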

How the data were processed

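RNA of primary rat OPCs and OLs was sequenced after poly(A) selection with a stranded kit. The authors deposited unnormalized estimated counts per gene (expected counts from Salmon 0.12.0, named in the submitters' processing notes, against Rnor6.0 transcripts, and summed to genes with tximport) for 23487 genes, 4036 of them at 0 in every library. The deposited comparison table of the authors holds DESeq2 fold changes and p-values, which were not used. Its symbols named 14561 gene IDs. Estimated counts share reads between near-identical transcripts, so paralogues with common sequence are less certain.

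Counts were rounded and tested with edgeR 4.0.16 (R 4.3.3) by the quasi-likelihood test with TMM scaling. Each comparison was fitted on its own 4 libraries, over genes that reached 5 counts in 2 or more of them, and p-values were adjusted by Benjamini-Hochberg over all genes tested, with 0.05 as the threshold. The standard error is the log2 fold change divided by the square root of F. Alternatives were DESeq2 1.42.0, its size factors, 2 other filters, all 5 groups in a single fit, the replicate number as a block and each library left out. Scripts were tested on simulated data. Named genes were the 10 members and, in each list and comparison, up to 2 called genes in each direction with the smallest p, or, with none called, the gene with the smallest p. Hapln3, Acan on the neighbour question and the levels of Mmp9 were added after values were seen. The members and lists were chosen with earlier results of these data known. The methods of the study mention a lentivirus where its labels name mimics, and the labels were followed. Totals of 33505668 to 42684176 counts leave genes at a few counts, such as Hapln1, imprecise.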

Additional observations from a re-analysis of the deposited data

How the results depend on the processing

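In the mimic comparisons the number of calls depended on the method. DESeq2 called 649 genes, 1 member and 12 pathway genes for miR-145 over OL miR-ctl, 106, 1 and 3 for both mimics over OL miR-ctl and 9 genes for both mimics over miR-145. A single fit of all 5 groups called 32 genes and 1 pathway gene for miR-145 over OL miR-ctl, and, for the OPC inhibitor, 2553 genes, 1 member and 17 pathway genes against 4348, 3 and 32. Without a filter, 1 gene was called for both mimics over OL miR-ctl. Causes were not tested.

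The replicate number was tried as a block, although the labels do not say that a number marks a shared culture. Same-numbered libraries correlated in their deviations from the group means at 0.404, 0.468 and 0.631 in the 3 mimic comparisons, -0.152 for the OPC inhibitor and 0.0668 between the controls. With the block, 2272 genes, 7 members and 29 pathway genes were called for miR-145 over OL miR-ctl, 132, 2 and 2 for both mimics over OL miR-ctl, and 184 genes and 3 pathway genes for both mimics over miR-145. The 7 members were Tnc, Ncan, Cspg5, Ptprz1 and Hapln2 higher and Cspg4 and Tnr lower, and the 2 were Tnc and Hapln2 higher. For the OPC inhibitor the block called 4 members and the crossed pairing, chosen after seeing the data, 5.

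Leaving out each library in turn called 0 genes in each mimic comparison, 2348 to 7133 genes, 2 to 7 members and 19 to 38 pathway genes for the OPC inhibitor (most without OPC anti-miR-145 replicate 2, with 7133 genes, and fewest genes without OPC anti-miR-ctl replicate 1, with 2348) and 4780 to 10306 genes, 6 to 9 members and 33 to 54 pathway genes between the controls. Without OPC anti-miR-ctl replicate 1 or 2, 4842 or 4780 genes were called between the controls, against 9042. Leaving out each library in turn, the sign of a log2 difference that had not been called turned for miR-145 over OL miR-ctl in Bcan (-0.254 to 0.267) and Vcan (-0.324 to 0.0917), for both mimics over OL miR-ctl in Cspg5 (-0.213 to 0.651), Ptprz1 (-0.169 to 0.539), Bcan (-0.234 to 0.229), Ncan (-0.157 to 0.651) and Vcan (-0.314 to 0.102), for both mimics over miR-145 in Cspg4 (-0.116 to 0.0929), Cspg5 (-0.778 to 0.138), Ptprz1 (-0.515 to 0.199), Bcan (-0.278 to 0.222), Vcan (-0.0828 to 0.0876), Tnr (-0.0383 to 0.215) and Hapln2 (-0.171 to 1.43) and for the OPC inhibitor in Ptprz1 (-0.207 to 0.185) and Ncan (-0.25 to 0.0178).

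Under other settings, Vcan for both mimics over miR-145 turned to 0.0076 in the fit of all groups and Ptprz1 for the OPC inhibitor to -0.0121 without a filter and -0.0122 with the block. Depth limits Hapln1 and Hapln2 most.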
